A study of Mus musculus with 29 samples.

Results

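The haematopoietic lineage transcription factors examined here were Spi1, Cebpa, Cebpe, Gfi1, Gfi1b, Gata1, Gata2, Runx1, Ikzf1 and Myb. They are named for their roles in blood formation, and every probe set that the array's annotation gave to exactly 1 of these symbols was taken. This found 18 probe sets for 9 of the 10 genes, among 18193 genes in all. Cebpe, a factor of late granulocyte maturation, matched no probe set in that annotation and was not analysed here. A gene with several probe sets is given by the 1 of highest mean signal.

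The samples came from mice of strain 129X1/SvJ that all carried the TH-MYCN transgene, in which the tyrosine hydroxylase promoter drives MYCN in sympathoadrenal cells and neuroblastoma develops. Tumour RNA came from primary abdominal tumours of 7 samples labelled wild type for caspase-8 and 17 labelled deficient for it. Total bone marrow gave 2 wild type and 3 deficient samples. There was thus no sample without the transgene, and the labels give neither the age of the animals nor how caspase-8 was removed. Nothing says that each sample was a separate animal, and the p-values then refer only to differences among these samples, which may be partly technical. Expression was read on a mouse 3' array, 1 array per sample, as log2 values after RMA between 1.87 and 14.4.

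Both tissues carried the markers of their labels. The mean of 14 sympathoadrenal markers was 10.13 ± 0.19 (SD, n = 24) in tumours and 4.04 ± 0.10 (SD, n = 5) in marrow, whereas 14 granulocyte markers averaged 4.04 ± 0.29 in tumours and 11.57 ± 0.18 in marrow. Correlations between arrays of a group ran from 0.972 to 0.993. Wild type tumour 1 stood apart by a leukocyte marker mean of 9.22, against 5.88 to 7.77 in the other 23 tumours. Deficient tumour 9 was the lowest tumour for macrophage markers (6.75, next 7.35) and for stem and progenitor markers (6.64, next 6.96). It was also the lowest for leukocyte (5.88) and adipocyte markers (4.25). The numbers in the sample titles form a lower series, held by 10 tumours, and a higher series that includes all marrow samples, and what the series stand for is not given. In marrow the wild type samples had low Xist (5.11 and 6.20) and the deficient ones high Xist (11.64 to 12.23), so genotype cannot be told apart there from sex. The Casp8 probe set read 5.88 ± 0.57 (n = 7) and 5.62 ± 0.44 (n = 17) in wild type and deficient tumours, and since the removed part of the gene is not given, this does not check the genotype.

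Blood cells arise from stem cells by steps in which a few transcription factors open 1 programme and close another. GATA2, RUNX1 and MYB act in stem and progenitor cells. SPI1 (also called PU.1) and CEBPA direct granulocytes and macrophages, GFI1 and CEBPE direct granulocytes, and GATA1 with GFI1B directs red cells and platelets. IKZF1 (Ikaros) directs lymphocytes. Some of these genes also work outside blood: GATA2 and its relative GATA3 take part in the development of sympathetic neurons, the lineage of neuroblastoma, and CEBPA is a factor of fat and liver cells.

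The GATA factors bind the letters GATA in DNA and are known to act on each other's genes and on Gfi1b. The sequences just upstream of the start sites of Gfi1b, Gata1 and Gata2 are shown for this reason, since the first pair and the last gene lay on opposite sides between the tissues. They are the 250 bases before the start on build GRCm38.p6, from RefSeq, written 5′ to 3′ along the gene's strand. Capitals mark a match, on either strand, to GATA with A or T before it and A or G after it.
Gfi1b, chr2:28621983-28622232, minus strand: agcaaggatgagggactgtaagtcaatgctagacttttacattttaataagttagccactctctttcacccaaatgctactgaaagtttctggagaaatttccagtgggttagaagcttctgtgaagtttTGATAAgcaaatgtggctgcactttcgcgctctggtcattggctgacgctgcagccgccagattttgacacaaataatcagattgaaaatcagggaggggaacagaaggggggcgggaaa
Gata1, chrX:7967911-7968160, minus strand: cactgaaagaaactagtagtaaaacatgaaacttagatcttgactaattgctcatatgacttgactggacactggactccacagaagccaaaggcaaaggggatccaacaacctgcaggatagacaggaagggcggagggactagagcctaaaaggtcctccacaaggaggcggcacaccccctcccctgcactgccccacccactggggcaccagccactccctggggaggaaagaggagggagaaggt
Gata2, upstream start, chr6:88193641-88193890, plus strand: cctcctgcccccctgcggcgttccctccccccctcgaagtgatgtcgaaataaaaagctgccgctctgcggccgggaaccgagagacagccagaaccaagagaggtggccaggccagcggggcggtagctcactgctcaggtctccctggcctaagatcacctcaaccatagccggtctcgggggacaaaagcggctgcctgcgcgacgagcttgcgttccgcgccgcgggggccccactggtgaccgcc
Gata2, downstream start, chr6:88198414-88198663, plus strand: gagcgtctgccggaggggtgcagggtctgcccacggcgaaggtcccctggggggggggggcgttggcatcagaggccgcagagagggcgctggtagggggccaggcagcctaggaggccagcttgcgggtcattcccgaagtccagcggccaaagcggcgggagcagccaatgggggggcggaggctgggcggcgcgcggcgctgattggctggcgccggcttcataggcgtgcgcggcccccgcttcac

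The Gfi1b window held 1 such match, 120 bases before the start, and no other searched form overlapped it. Of the 12 windows listed for 8 of the measured factors, 1 held a match, against 26.5% of the 32851 windows of all genes. A match is only a run of letters, and windows without 1 say nothing of the factor. The array does not read which start was used.

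The first comparison asked how the factors differ between tumours and bone marrow. Of the 9 measured factors, 8 were lower in tumours and 1, Gata2, was higher, in limma with Benjamini-Hochberg adjustment over all genes. Of all genes, 76.4% passed this test, 42.2% as lower and 34.2% as higher in tumours, so passing it does not set the factors apart. By size, 8 of 9 were lower by at least 1 on the log2 scale, as were 12.6% of all genes, and 4 of 9 (Gata1, Ikzf1, Gfi1 and Gfi1b) by at least 4, as were 1.48% of all genes. The median difference of the 9 factors was -3.59, beside -0.10 over all genes. In 8 of 9 factors every tumour lay under every marrow sample, which held for 16.9% of all genes. Centring each array on its median moved the median of all genes to -0.39, called 4711 genes higher and 10602 lower in place of 6218 and 7681, and turned none of the 9 directions. Whether fewer blood cells or less RNA per cell lay behind a lower value cannot be told apart in bulk samples.

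**Figure D1:**
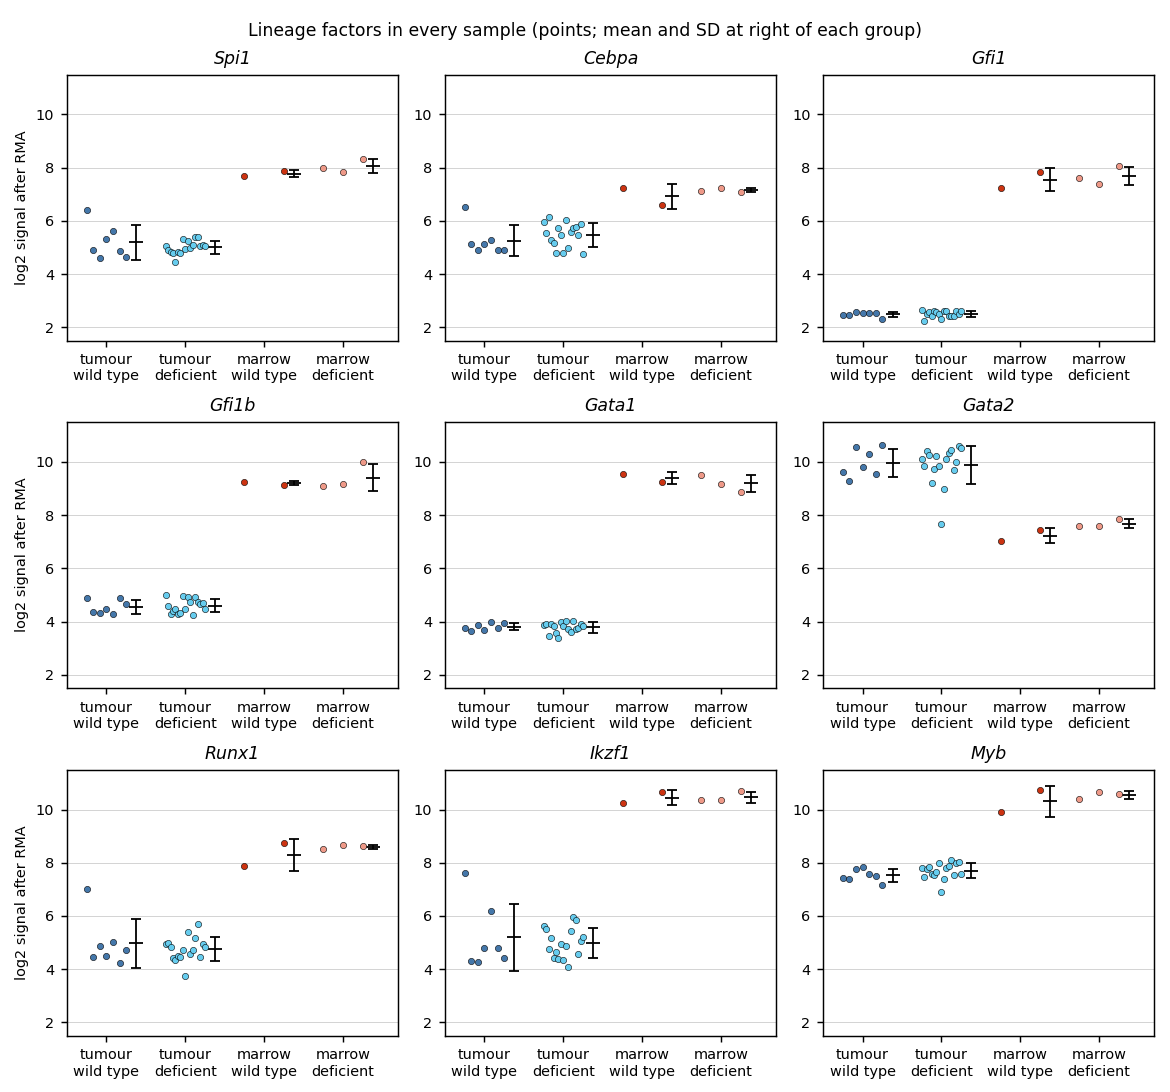
Log2 signal after RMA (y axis) of the 9 measured factors in every sample of the 4 groups (x axis), with 1 point per sample and the mean and SD at the right of each group. Marrow samples lie above all tumours in 8 panels, the Gata2 panel is turned around, and wild type tumour 1 is the high point in Spi1, Cebpa, Runx1 and Ikzf1.

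Gata2 was the exception. Its marrow values were 7.03 and 7.44 in wild type and 7.58, 7.59 and 7.87 in deficient samples. Wild type tumours ran from 9.29 over a median of 9.81 to 10.62, and deficient tumours from 7.66 over 10.12 to 10.59. The tissues overlapped in only 1 sample, deficient tumour 9, whose value of 7.66 lay inside the marrow range, while the other 23 tumours started at 8.98. The difference, tumours minus marrow, was 2.46 (SE 0.31, limma adjusted p = 2.70e-08), a 5.52-fold higher signal. A gain of at least 1 on the log2 scale was also seen in 16.8% of all genes. The other Gata2 probe set differed by 2.83 (SE 0.36), and the probe sets followed each other across tumours (Pearson r = 0.98, rho = 0.94, permutation p = 1e-05 for both, the smallest that 100000 permutations give, n = 24).

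Gata2 is also known from mast cells, endothelium and stem cells, and those markers were read beside it. Of 11 mast cell markers 0 were higher in tumours and 7 lower, with the IgE receptor chains Fcer1a and Ms4a2 at 2.71 and 2.76 in tumours and 7.11 and 6.39 in marrow. The mast cell marker mean ran from 3.61 to 3.79 in tumours and from 5.14 to 5.49 in marrow. The endothelial marker mean was 6.18 ± 0.43 (n = 24) in tumours and 5.74 ± 0.10 (n = 5) in marrow, with 7 of 14 markers higher and 3 lower. Stem and progenitor markers split, with 4 of 9 higher in tumours, 3 lower and 2 not called (median 0.082). Beside these counts, 34.2% of all genes were called higher in tumours and 42.2% lower. Hlf, Mecom and Meis1, all transcription factor genes, were higher by 5.28, 4.25 and 3.60, while the receptor gene Flt3 was lower (-3.04). Sympathoadrenal markers were higher in 13 of 14 cases, among them Chgb (8.79), the transcription factor genes Isl1 (8.60) and Hand2 (7.27), and the decarboxylase gene Ddc (8.10).

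The erythroid and megakaryocytic pair Gata1 and Gfi1b was far lower in tumours. Gata1, the master factor of red cells and megakaryocytes, read 9.55 and 9.23 in wild type and 9.52, 9.18 and 8.88 in deficient marrow. In tumours it ran from 3.67 over 3.76 to 3.99 in wild type and from 3.38 over 3.84 to 4.04 in deficient samples. No tumour came near the marrow values, and the difference was -5.50 (SE 0.10, limma adjusted p = 3.30e-28). Gfi1b, a zinc finger repressor that works with the demethylase Kdm1a, read 9.25 and 9.15 in wild type and 9.10, 9.16 and 9.99 in deficient marrow. Its tumour values ran from 4.30 over 4.46 to 4.90 in wild type and from 4.25 over 4.60 to 5.02 in deficient samples. Here too the tissues were wide apart, at -4.73 (SE 0.14, limma adjusted p = 5.21e-23). Of 10 measured genes known as targets of the pair, 9 were lower in tumours and 0 higher, with a median of -4.51. They included Nfe2 (-8.55) and Klf1 (-7.70), transcription factors of platelets and red cells, the erythropoietin receptor Epor (-4.60) and the platelet glycoprotein Gp9 (-3.80). Most of the 10 targets are also in the erythroid or megakaryocyte marker lists, so they are not a reading separate from those markers.

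Of the myeloid factors, Gfi1 had the widest gap and Cebpa the narrowest. Gfi1, a repressor needed for neutrophils, read 7.25 and 7.85 in wild type and 7.61, 7.40 and 8.06 in deficient marrow. Tumours lay between 2.31 and 2.59 (median 2.53) in wild type and between 2.23 and 2.64 (median 2.51) in deficient samples. These tumour values are close to the lowest of the whole table, 1.87, and sit within a spread of 0.11 (SD, n = 24). The difference was -5.12 (SE 0.086, limma adjusted p = 5.20e-29). The table holds no detection calls, so whether such tumour signals exceed background was not tested. This also touches Gata1, Gfi1b and Runx1, whose tumour means were under 5.

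Spi1 and Cebpa kept more signal in tumours. Spi1, the ETS factor of macrophages, granulocytes and B cells, read 7.68 and 7.88 in wild type and 8.0, 7.85 and 8.33 in deficient marrow. Tumours ran from 4.60 over 4.90 to 6.41 in wild type and from 4.45 over 5.05 to 5.41 in deficient samples. The top value was wild type tumour 1, still under every marrow sample, and the difference was -2.81 (SE 0.18, limma adjusted p = 2.41e-14). Cebpa, the basic leucine zipper factor that starts granulocyte development, read 7.25 and 6.58 in wild type and 7.13, 7.23 and 7.10 in deficient marrow. Its tumour values ran from 4.90 over 5.13 to 6.52 in wild type and from 4.76 over 5.53 to 6.14 in deficient samples. Wild type tumour 1 at 6.52 nearly met wild type marrow 2 at 6.58, and the difference was -1.67 (SE 0.23, limma adjusted p = 1.22e-07).

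Genes known as targets of the myeloid factors were lower in tumours as well. Of 14 measured Spi1 targets 13 were lower and 0 higher (median -3.00), among them the integrin Itgam (-5.38), the oxidase subunits Ncf1 (-6.16) and Ncf4 (-5.40) and the G-CSF receptor Csf3r (-4.99). Some of the Spi1 targets are also in the macrophage or granulocyte marker lists, so they are not wholly separate from those markers. All 12 targets of Cebpa and Cebpe were lower, with a median of -8.04, beside -0.10 over all genes. Examples are Prg2 (-9.44), the antimicrobial peptide gene Camp (-8.82), the peroxidase Mpo (-8.31) and the collagenase Mmp8 (-7.76). Most of these 12 targets are also in the granulocyte marker list, so they are not a reading separate from those markers. Of 8 genes known to be repressed by Gfi1, 5 were lower and 1, Meis1 (3.60), higher in tumours. The lower ones included Irf8 (-3.53), Id2 (-1.17) and Csf1 (-0.72), so this list did not move opposite to Gfi1 as a whole.

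Runx1, Ikzf1 and Myb act in progenitors and lymphoid cells. Runx1, the DNA-binding subunit of core binding factor, read 7.87 and 8.73 in wild type and 8.52, 8.66 and 8.63 in deficient marrow. Tumours ran from 4.25 over 4.71 to 6.995 in wild type and from 3.76 over 4.72 to 5.71 in deficient samples. Wild type tumour 1 was the top and deficient tumour 9 the bottom, and the difference was -3.59 (SE 0.29, limma adjusted p = 2.10e-12). Ikzf1, the zinc finger factor Ikaros, read 10.24 and 10.65 in wild type and 10.34, 10.35 and 10.70 in deficient marrow. Tumours ran from 4.26 over 4.79 to 7.61 in wild type and from 4.06 over 4.95 to 5.95 in deficient samples. Wild type tumour 1 again stood above the rest, and the difference was -5.36 (SE 0.36, limma adjusted p = 5.84e-14).

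Myb, a factor of dividing progenitors, read 9.90 and 10.73 in wild type and 10.38, 10.64 and 10.60 in deficient marrow. Tumours ran from 7.16 over 7.51 to 7.85 in wild type and from 6.92 over 7.78 to 8.11 in deficient samples. Its lowest tumour was deficient tumour 9, as for Gata2, and the difference was -2.82 (SE 0.14, limma adjusted p = 4.43e-17). Of 9 genes known as targets of Myb and Ikzf1, 7 were lower in tumours and 0 higher (median -2.11). The lymphoid genes Vpreb1 (-3.52), Il7r (-3.19) and Dntt (-3.09) and the receptor gene Flt3 (-3.04) were among them. Several of the listed targets are also in the stem and progenitor or B cell marker lists, so they are not wholly separate from those markers. Kit, chosen for mention after its values were seen, did not pass, at 8.09 in tumours and 8.01 in marrow.

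The probe sets of a factor agreed in direction but not in size. All 18 were called between tissues, beside 70.3% of all probe sets. The 6 of Runx1 differed by -1.26 to -3.59, and the 3 of Myb by -2.82 to -3.07. Ikzf1 had the widest spread, with -5.36 at the probe set that stood for the gene and -0.66 (SE 0.10) at the other, whose marrow values ran only from 4.49 to 4.86. With the mean of all probe sets the difference was -2.14 for Runx1 and -3.01 for Ikzf1. The probe set that stood for Myb is of a type that the array's maker marks as able to share sequence with other transcripts, and the 2 others of Myb gave like differences.

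**Figure D2:**
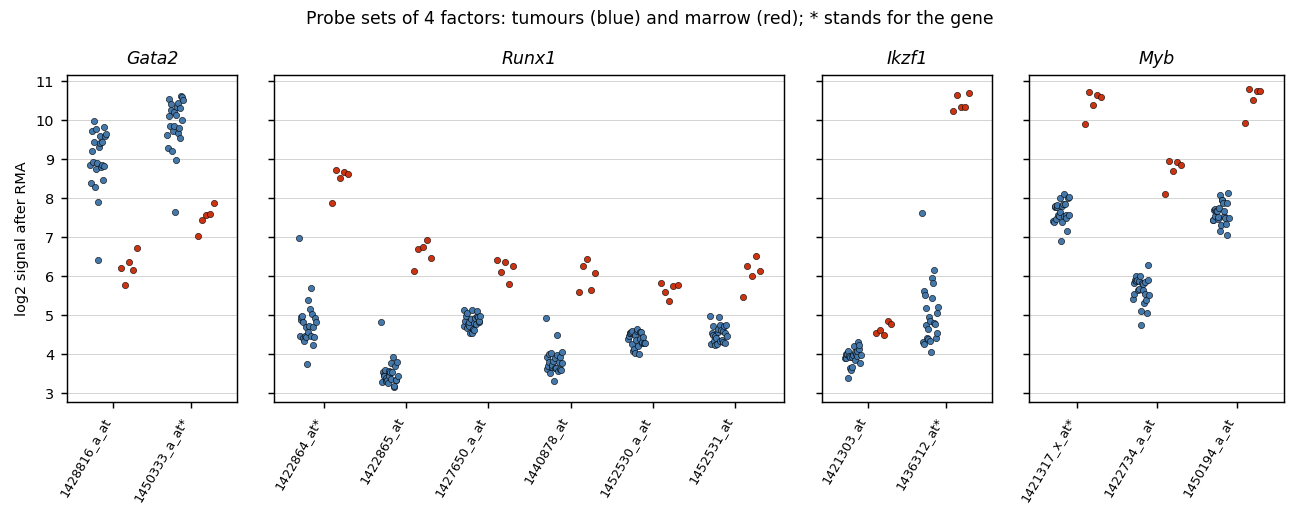
Log2 signal after RMA (y axis) at each probe set (x axis) of the 4 factors with more than 1, with tumours in blue, marrow in red, 1 point per sample and an asterisk at the probe set that stood for the gene. Marrow lies above tumours at every probe set of Runx1, Ikzf1 and Myb and below most tumours at both of Gata2, and the first Ikzf1 probe set shows a difference of -0.66 where the second shows -5.36.

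Across tumours the probe sets of Myb were correlated with each other (r of 0.786 to 0.908). Those of Ikzf1 were not called (r = 0.094, rho = 0.126, permutation p = 0.655 and 0.554, n = 24). For Runx1 the probe set that stood for the gene was related to another of its probe sets at r = 0.818 (rho = 0.608) and to a further 1 at r = 0.75 (rho = 0.388), with r = 0.61 and 0.345 once wild type tumour 1 was left out. With the other 3 its r was 0.488, 0.149 and 0.111, the last 2 not called (adjusted p = 0.627 and 0.727). Statements below on variation of Runx1 and Ikzf1 therefore rest on 1 probe set each. Benjamini-Hochberg adjusted p over the 20 probe set pairs was 6.67e-05 for the Gata2 pair and 0.727 for the Ikzf1 pair.

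Partners and relatives of the factors did not share 1 direction. Of 22 partner factors 13 were lower in tumours, 7 higher and 2 not called (median -1.60). The erythroid partners Klf1 and Tal1 (-7.68) and the bZIP factor Nfe2 were lower, while Kdm1a, the histone demethylase recruited by Gfi1 and Gfi1b, was higher by 1.82 (SE 0.066). Of 16 measured paralogues 9 were lower, 3 higher and 4 not called. Over all genes 42.2% were called lower and 34.2% higher, 76.4% in all, so passing the test does not set the paralogues apart. Gata3, the relative that is a core factor of sympathetic neurons, was at 8.83 in tumours and 3.72 in marrow, a difference of 5.03 (SE 0.38, limma adjusted p = 6.14e-13). Thus 2 GATA genes, Gata2 and Gata3, were higher in tumours and Gata1 was lower, whereas Gata4 (-0.20) and Gata6 (-0.15) were not called and Gata5 differed by -0.22. In the other families Cebpd (-4.54), Spib (-4.51), Cebpb (-2.27) and Ikzf2 (-1.75) were lower, and Mybl1 was higher by 1.53.

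**Figure D3:**
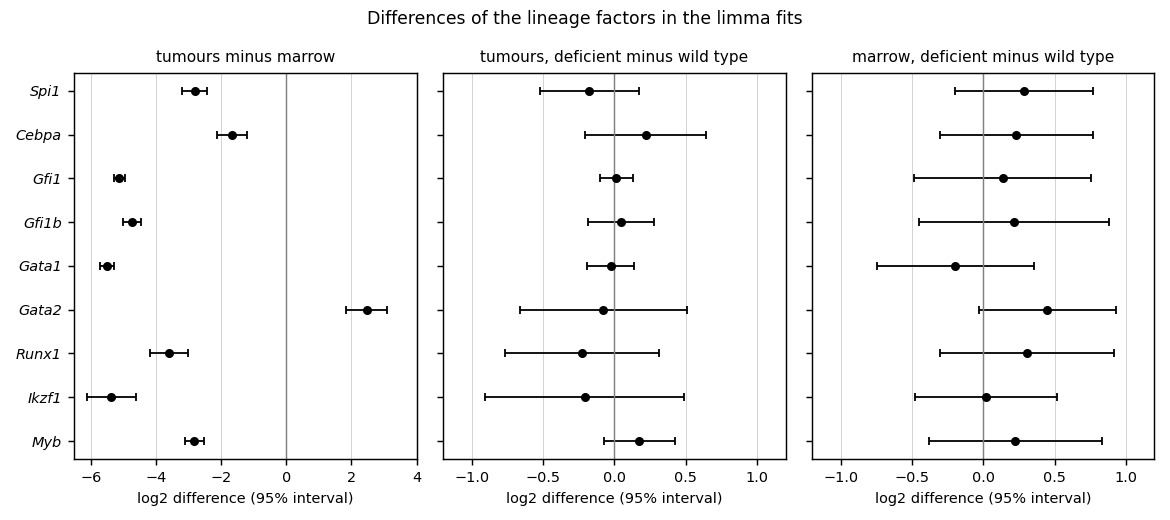
Log2 differences of the 9 factors (x axis, points, with 95% intervals from limma as bars) for tumours minus marrow, for deficient minus wild type tumours and for deficient minus wild type marrow. The first panel runs from -5.50 for Gata1 to 2.46 for Gata2 on its own scale, and all intervals of the other panels include 0.

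The second comparison asked whether caspase-8 deficiency went with a different level of the factors in tumours. None of the 9 was called by limma in 17 deficient against 7 wild type tumours, and 0 had an unadjusted p under 0.05 at the probe set that stood for the gene. Of the other probe sets, 1 of Myb did, at 0.24 (95% interval 0.014 to 0.47, unadjusted p = 0.0383, limma adjusted p = 0.9995 over all probe sets). The share called over all genes was 0.0%, with 583 of 18193 genes at an unadjusted p under 0.05. Differences, deficient minus wild type, were smallest for Gfi1 at 0.014 (95% interval -0.10 to 0.13) and Gata1 at -0.025 (-0.19 to 0.14). Gfi1b was at 0.048 (-0.18 to 0.28) and Gata2 at -0.077 (-0.66 to 0.51). Myb was at 0.18 (-0.073 to 0.42) and Cebpa at 0.22 (-0.21 to 0.64). The genotypes overlapped for every factor, and the intervals leave room for changes up to their bounds.

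The 3 factors with the largest negative values turned on 1 sample. Spi1 was at -0.18 (95% interval -0.52 to 0.17), Ikzf1 at -0.21 (-0.91 to 0.49) and Runx1 at -0.23 (-0.76 to 0.31). Without wild type tumour 1 they were at 0.026, 0.19 and 0.11, and Cebpa moved from 0.22 to 0.43. That tumour was the highest of 24 for 4 factors and for the leukocyte markers. Gata2 turned to 0.062 without deficient tumour 9, and Gfi1 to -0.0024 when arrays were centred. Leukocyte markers were at 6.99 ± 1.12 (n = 7) in wild type and 6.77 ± 0.48 (n = 17) in deficient tumours, with 0 of 12 called. Endothelial markers were at 5.87 ± 0.40 and 6.31 ± 0.39, and the control probe sets' 3' signal less their 5' signal, a sign of RNA quality, at 0.616 ± 0.145 and 0.761 ± 0.175. With the leukocyte mean or this 3' bias as a covariate, 0 of the 9 factors were called by limma. The part of the endothelial markers was not tested.

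The genotype difference was also set against the title-number series. No factor of 9 was called in this interaction by limma, nor had 1 an unadjusted p under 0.05, and 0.0% of all genes were called, with 933 at an unadjusted p under 0.05. Runx1 was at 1.02 (95% interval -0.032 to 2.07, unadjusted p = 0.0568, limma adjusted p = 0.921), and was at 0.42 with the mean of its probe sets. Its genotype difference was -0.81 in the lower series, which holds wild type tumour 1, and 0.21 in the higher series.

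The third comparison asked the same in bone marrow, with 3 deficient and 2 wild type samples. No factor of 9 was called by limma and 0 had an unadjusted p under 0.05. Over all genes 0.022% were called, 4 of 18193, and these were Xist and the Y-linked Eif2s3y, Kdm5d and Uty, while 737 had an unadjusted p under 0.05. The means of 8 of the 9 factors were higher in deficient marrow and that of Gata1 was lower (-0.20). The median difference over all genes was -0.013. The share of all genes with a higher mean was not counted, so no shift of the factors as a set is read from this. Gata2 had the largest difference, 0.45 (95% interval -0.033 to 0.93, unadjusted p = 0.0637, limma adjusted p = 0.9996), and stayed between 0.24 and 0.65 when samples were left out in turn. It was the only factor whose 3 deficient samples all lay above both wild type ones, which held for 8.21% of all genes. This order of the Gata2 samples held only at the probe set that stood for the gene. At its other probe set, deficient marrow 2 (6.15) lay under wild type marrow 1 (6.22).

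The other factors overlapped between the marrow genotypes. Runx1 differed by 0.31 (95% interval -0.30 to 0.92), Spi1 by 0.28 (-0.20 to 0.77), Cebpa by 0.23 (-0.30 to 0.77), Myb by 0.23 (-0.38 to 0.83), Gfi1b by 0.22 (-0.45 to 0.88), Gfi1 by 0.14 (-0.48 to 0.76) and Ikzf1 by 0.019 (-0.48 to 0.52). Wild type marrow 1 was the lowest of the 5 samples for 6 factors, and deficient marrow 3 the highest for 5. Without wild type marrow 1, Runx1 was at -0.12, Gfi1 at -0.16, Myb at -0.19 and Ikzf1 at -0.19. Ikzf1 also turned to -0.0099 when arrays were centred. Of the targets of Myb and Ikzf1, 8 of 9 had higher means in deficient marrow (median 0.69, beside -0.013 over all genes) and 0 were called. B cell markers, which share Vpreb1 and Igll1 with that list, were at 7.11 ± 0.24 (n = 2) and 7.61 ± 0.68 (n = 3), and megakaryocyte markers at 8.54 ± 0.37 and 8.96 ± 0.17. Their part in the values was not tested.

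A test of whether the genotype difference itself differed between marrow and tumours called 0 of the 9 factors by limma, beside 0.319% of all genes. No factor had an unadjusted p under 0.05 there, and 1424 genes did. Runx1 was at 0.53 (95% interval -0.63 to 1.70), or 0.27 with the mean of its probe sets, Gata2 at 0.52 (-0.73 to 1.78) and Spi1 at 0.46 (-0.29 to 1.22). The comparison shares its samples with both genotype comparisons. Its marrow side carries the same limit, that genotype cannot be told apart from sex there.

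Within tumours the factors differed in what they varied with. Each of the 9 was correlated with the means of 11 marker lists over 24 tumours, 99 pairs in all, and 21 pairs had a Benjamini-Hochberg adjusted permutation p under 0.05, of which 18 were positive. Ikzf1 followed the leukocyte markers most closely (Pearson r = 0.966, Spearman rho = 0.948, permutation p = 1e-05 for both, the smallest they can give, adjusted p = 0.000141 and 0.000495). Without the 2 tumours farthest from the median r was 0.918, and it was 0.983 in the lower and 0.935 in the higher title-number series. Runx1 (r = 0.911, rho = 0.804) and Spi1 (r = 0.881, rho = 0.748) did likewise, with r = 0.83 and 0.687 without those 2 tumours. The adjusted p of r was 0.000141 for both. B cell markers averaged 4.37 in tumours and were called with Ikzf1, Spi1, Runx1 and Cebpa (r = 0.877, 0.863, 0.763 and 0.557). Their adjusted permutation p was 0.000141, 0.000141, 0.00165 and 0.0246. Without wild type tumour 1 these r were 0.776, 0.744, 0.536 and 0.359, with Runx1 and Cebpa not called (adjusted p = 0.0514 and 0.246). T and NK cell markers averaged 4.36 in tumours and were called with Spi1 and Ikzf1 (r = 0.678 and 0.613, adjusted permutation p = 0.00975 and 0.0201). By rho, Cebpa with B cell markers (adjusted p = 0.0555) and Ikzf1 with T and NK cell markers (0.109) did not pass. The markers are read on the same arrays, so a correlation also holds whatever moves an array as a whole.

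**Figure D4:**
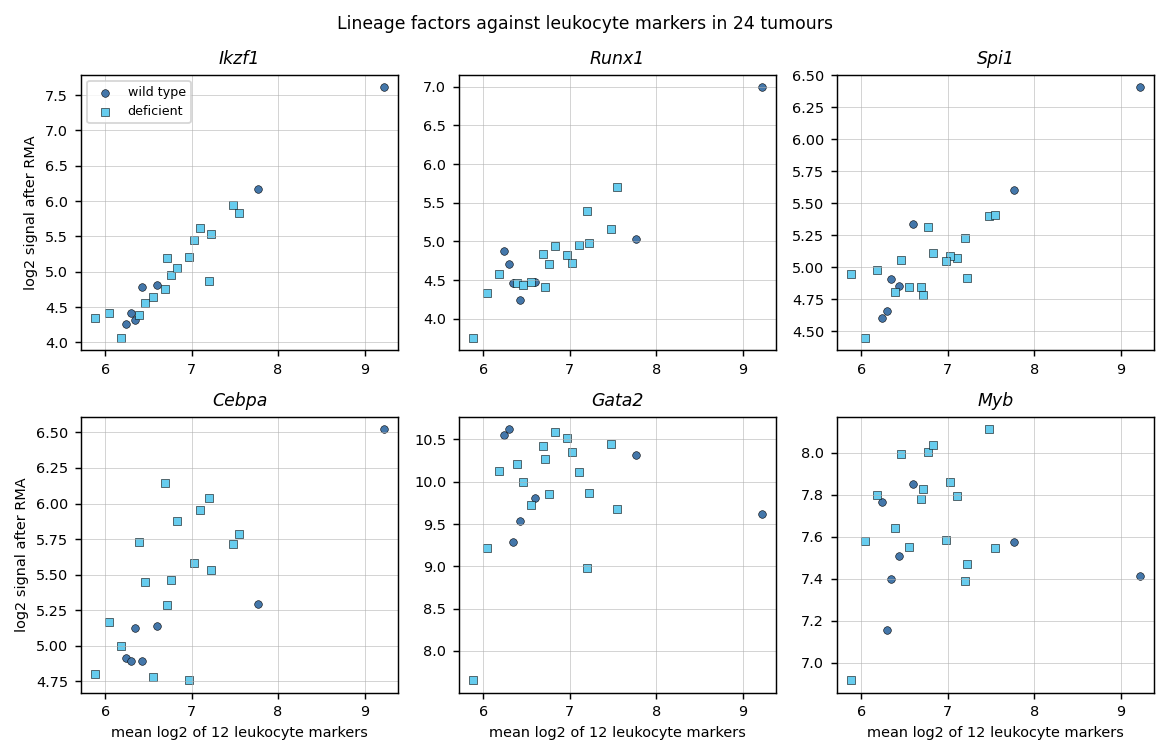
Log2 signal of 6 factors (y axis) against the mean log2 signal of 12 leukocyte markers (x axis) in 24 tumours, with circles for wild type and squares for deficient samples. Ikzf1, Runx1 and Spi1 climb with the markers (r = 0.966, 0.911 and 0.881), Gata2 and Myb do not (r = 0.163 and 0.0677), and the point at the far right is wild type tumour 1.

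Cebpa had its highest r of the 11 lists with macrophage markers (r = 0.807, rho = 0.79, permutation p = 1e-05 and 3e-05, adjusted p = 0.000141 and 0.000594). Its r was 0.737 without the 2 farthest tumours, while the lower series gave 0.918 and the higher 0.74. Runx1, Ikzf1 and Spi1 were called with macrophage markers too (r = 0.804, 0.758 and 0.701, adjusted permutation p = 0.000141, 0.000247 and 0.00234), so this was not particular to Cebpa. Without wild type tumour 1 their r was 0.717, 0.63 and 0.532 (adjusted permutation p = 0.00184, 0.0104 and 0.0514), so the call of Spi1 was lost. In deficient tumours alone Runx1 was called (r = 0.842) but Ikzf1 and Spi1 were not (r = 0.581 and 0.453). Cebpa was the only factor called with endothelial markers (r = 0.55, rho = 0.648, adjusted p = 0.0279 and 0.00871). Cebpa was also called with stem and progenitor markers (r = 0.589, rho = 0.627, adjusted permutation p = 0.0127 and 0.0113), a list that overlaps the endothelial list. For the stem and progenitor list r was 0.555 without the 2 farthest tumours (adjusted permutation p = 0.0618). A list of 8 measured adipocyte markers, added after the values of Cebpa were seen, gave r = 0.761 and rho = 0.755 with Cebpa (permutation p = 2e-05 and 7e-05, adjusted over 9 pairs 0.00018 and 0.00063). Runx1 passed with that list by r but not by rho (r = 0.496, rho = 0.41, adjusted permutation p = 0.049 and 0.206), and no other factor passed. Adipocyte markers ranged from 4.25 to 7.78 over tumours. Against the sympathoadrenal markers r was -0.656 for Cebpa, -0.624 for Runx1 and -0.575 for Spi1 (rho = -0.604, -0.394 and -0.376, adjusted p of rho 0.016, 0.17 and 0.196). None was called without the 2 farthest tumours, at -0.478, -0.241 and -0.224 (adjusted p = 0.126, 0.533 and 0.579). Without wild type tumour 1 alone they were at -0.521, -0.321 and -0.253 (adjusted p = 0.0581, 0.312 and 0.438). The calls of Runx1 and Spi1 thus rest on that sample. Cebpa, also called by rho over all 24 tumours, lay just over the threshold without it.

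Gata2 was called with none of the 11 lists. Its r was -0.204 with sympathoadrenal markers (rho = -0.244, permutation p = 0.321 and 0.247), 0.197 with endothelial markers and -0.0886 with mast cell markers. With the stem and progenitor list r was 0.547 but rho 0.216 (adjusted p = 0.0725 and 0.491), and r was -0.0469 without the 2 farthest tumours, so it rests on those samples. Gfi1 and Gfi1b were called with none as well. Gata1 passed with erythroid markers (r = 0.517, rho = 0.423, adjusted p = 0.0478 and 0.132) and Myb with stem and progenitor markers (r = 0.586, rho = 0.432, adjusted p = 0.0201 and 0.127). Both lost this without the 2 farthest tumours, at r = 0.308 and 0.301.

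**Figure D5:**
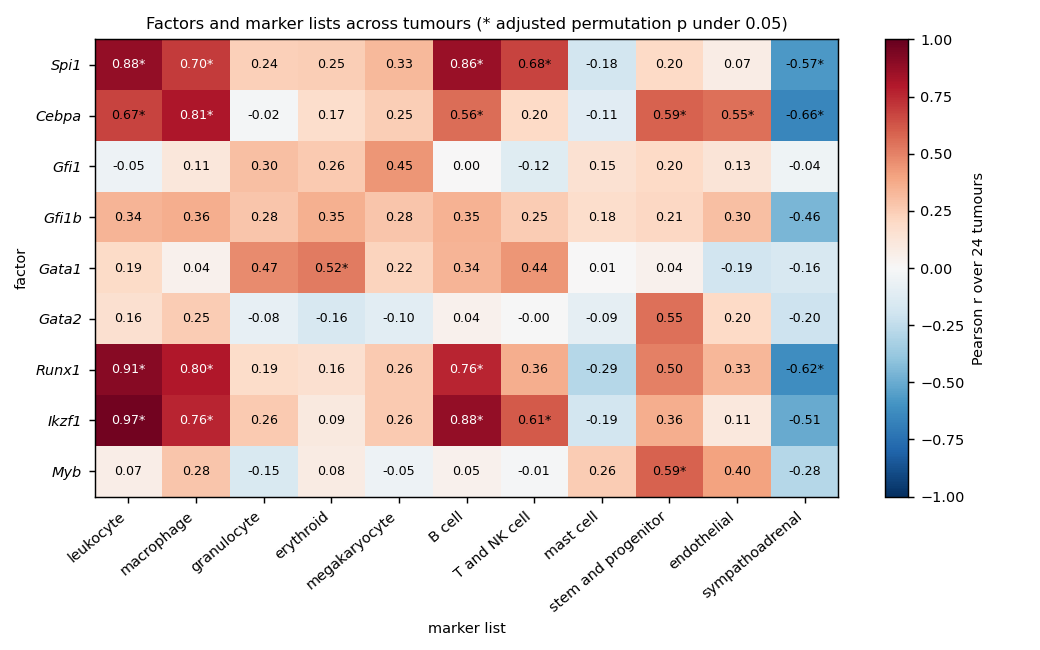
Pearson r over 24 tumours (colour and number in each cell) between the 9 factors (rows) and the means of 11 marker lists (columns), with an asterisk at an adjusted permutation p under 0.05. Spi1, Cebpa, Runx1 and Ikzf1 hold 19 of the 21 marked cells, Gata1 and Myb hold 1 each, and Gfi1, Gfi1b and Gata2 hold none.

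Between the factors themselves 8 of 36 pairs had an adjusted permutation p under 0.05 by Pearson's r and 4 by Spearman's rho. Of the 8, 6 were the pairs among Spi1, Cebpa, Runx1 and Ikzf1, from r = 0.569 for Spi1 with Cebpa to 0.841 for Spi1 with Ikzf1. By rho, Spi1 with Cebpa (adjusted p = 0.1) and Cebpa with Ikzf1 (0.076) did not pass. Without wild type tumour 1 the 6 values of r ran from 0.361 to 0.686. Gfi1b and Gata1 were related at r = 0.516 (rho = 0.497, adjusted p = 0.0448 and 0.076). Gata2 and Myb were related at r = 0.626 (rho = 0.495, adjusted p = 0.0103 and 0.076), which was 0.397 without deficient tumour 9, the lowest tumour for both.

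The genes most like each factor over the 24 tumours, by Pearson r among all measured genes, are given as a description. For Ikzf1 they were Cd300c2, Selplg and Rac2 (0.96, 0.958 and 0.957), of which Rac2 is also in the leukocyte list. Runx1 was nearest to Il16, Rgs10 and Ms4a6c (0.934, 0.926 and 0.925), and Spi1 to the costimulatory molecule Cd86, Sash3 and Naip2 (0.924, 0.915 and 0.912). Without wild type tumour 1 these 9 values lay between 0.806 and 0.922. Cebpa was nearest to the transcription factor Stat6, Mdfic and glutamine synthetase Glul (0.894, 0.87 and 0.861). Gata2 was nearest to Bccip, the replication kinase subunit Dbf4 and the centromere protein gene Cenpu (0.834, 0.821 and 0.818), at 0.699, 0.76 and 0.742 without deficient tumour 9. Myb was nearest to Ptges2, the splicing regulator Ptbp1 and Rpp25 (0.822, 0.807 and 0.802). The nearest genes of Gata1 (Lrch4 at 0.812), Gfi1b (Sgsh at 0.739) and Gfi1 (Ddx54 at 0.633) belong to factors that had tumour means under 5 in every case.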

How the data were processed

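RNA from 24 tumours and 5 bone marrow samples was hybridised to 29 arrays, with cRNA made from 100 ng of total RNA, per the labels' protocols. The deposited values are log2 expression, which the authors made with RMA in Partek 6.6, per the submitters' processing notes. That method narrows differences at low signal, and its quantile step takes out shifts common to most genes. Of 45101 probe sets 64 were controls, and 34945 had 1 gene symbol in the platform annotation, 932 several and 9160 none. Symbols were updated through 34741 Entrez matches to a RefSeq table of GRCm38.p6. The probe set of highest mean stood for each of 18193 genes. Arrays have no read depth, and their number limits the precision.

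Genotype and tissue labels gave the groups. Each comparison used limma 3.58.1 (R 4.3.3) over all genes, two-sided, with Benjamini-Hochberg adjustment and a threshold of 0.05, and the fits were checked on simulated data. Genotype was compared in tumours alone and in marrow alone, while tissue and interaction came from a model of all 4 groups. Correlations used 100000 two-sided permutations. As alternatives, probe sets were averaged or picked on marrow, genes under a mean log2 of 5 were dropped, and normalization, variance model, array weights, covariates and samples were varied. The members and all lists were chosen with earlier results of these data known. Named genes were the members, the paralogues, the 4 genes of smallest p of each list and the 3 genes most like each member. Figures were drawn with matplotlib 3.10.9.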

Additional observations from a re-analysis of the deposited data

Results flagged for a closer look

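In wild type tumours, 1 sample lay far from the other 6 for 2 factors. For Cebpa, wild type tumour 1 was at 6.522 and the next at 5.295, a gap of 0.754 of the group's range. For Runx1 it was at 6.995 and the next at 5.035, a gap of 0.714 of the range. The tumour also had a leukocyte marker mean of 9.22, a macrophage marker mean of 9.10 and an adipocyte marker mean of 7.66, and the part of these in its values was not tested. The 9 factors were examined this way in the wild type tumours only, the 1 group of 4 to 10 samples, and chance flags about 1 in 20 groups.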

How the results depend on the processing

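The 9 differences between tumours and marrow kept their direction and their call under each alternative that measured them, and Gfi1 and Gata1 dropped out under the mean log2 filter of 5, which left 7 factors. Their adjusted p was at most 0.00444, and an alternative added after the data were seen, with tumours of the higher title-number series only, called all 9. No alternative called a factor for genotype in tumours or marrow or for either interaction. The values below come from differences that were not called, and the cause of their turn was not tested. In tumours, Gfi1 was at -0.0024 with arrays centred, Ikzf1 at 0.036 with array weights and at 0.029 with the leukocyte mean as covariate, and Gata2 at 0.020 with the 3' bias of the control probe sets as covariate. In the lower title-number series Cebpa was at -0.0081, Gfi1b at -0.041 and Gata2 at 0.16, and in the higher series Spi1 was at 0.046 and Runx1 at 0.21. Leaving out samples in turn gave -0.28 to 0.026 for Spi1, -0.015 to 0.031 for Gfi1, -0.049 to 0.0055 for Gata1, -0.19 to 0.062 for Gata2, -0.35 to 0.11 for Runx1 and -0.36 to 0.19 for Ikzf1. In marrow, Ikzf1 was at -0.0099 with arrays centred and -0.044 with array weights. Leaving out samples there gave -0.10 to 0.57 for Cebpa, -0.16 to 0.43 for Gfi1, -0.070 to 0.38 for Gfi1b, -0.12 to 0.74 for Runx1, -0.19 to 0.22 for Ikzf1 and -0.19 to 0.64 for Myb.

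Of the 99 pairs of factor and marker list, 21 were called, and 12 without the 2 farthest tumours, 7 in the lower and 10 in the higher series, 3 in wild type and 9 in deficient tumours alone, and 14 without wild type tumour 1, a setting added after the data were seen. Most of these sets hold fewer tumours. No paired analysis was possible because nothing in the labels ties a tumour to a marrow sample of the same animal. The labels carry no replicate numbers, and the sample numbers used here follow the order within each group. Signal over background was not given, which limits what can be said of low tumour values.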
